A study of Mus musculus with 10 samples.

Results

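The genes of MHC class II antigen presentation were followed across phagocytes of mouse Peyer's patches, the lymphoid follicles of the small intestine, and across blood cells with high CD115. The 10 genes were chosen by name out of the 32285 genes of each matrix, and all 10 had UMIs (single counted mRNA molecules) in both datasets. H2-Aa, H2-Ab1 and H2-Eb1 encode chains of the class II molecules, Cd74 the invariant chain and Ciita the class II transactivator. H2-DMa, H2-DMb1 and H2-DMb2 encode the peptide loading factor H2-DM, and H2-Oa and H2-Ob encode its inhibitor H2-O.

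MHC class II molecules present peptides from endosomes to CD4+ T cells. The invariant chain occupies the groove of a new class II molecule and guides it to endosomes, where H2-DM exchanges the remaining fragment of the chain for peptides and H2-O restrains H2-DM. Ciita does not bind DNA itself: it is recruited by the RFX, CREB and NF-Y factors that sit on the X and Y boxes of class II promoters, and its own level is known to limit class II transcription. In the C57BL/6 strain the alpha chain that pairs with the H2-Eb1 product is not made.

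All mice were female C57BL/6Rj. LysoDCs, the lysozyme-expressing dendritic cells of Peyer's patches, and cDC2s (conventional dendritic cells of type 2) came from untreated mice. Blood came from mice given clodronate-loaded liposomes 9 days earlier to raise the number of DN cells, which are CD115hi blood cells with neither Ly6C nor CD43. Tissue and treatment therefore cannot be told apart in comparisons of Peyer's patch cells with blood cells. Dataset 1 pooled Peyer's patches of 30 mice and blood of 20 mice, and its cells were tagged with hashtag antibodies after the sort and loaded as 1 library. It held follicular, immature, intermediate and mature LysoDCs, immature and maturing cDC2s, DN cells, Ly6C+ monocytes and CD43+ monocytes. Dataset 2 pooled 20 and 18 mice, with tags added ahead of the sort and 4 libraries loaded. It held LysoDCs whose 4 hashtags could not be assigned to subsets, DN cells, Ly6C+ monocytes and CD43+ monocytes. The labels of dataset 2 name DN cells with CCR2 and DN cells without CCR2, in separate libraries. These shared a hashtag and were summed here. By the labels, the blood populations of dataset 2 were in libraries of their own, so differences among them there cannot be told apart from differences between libraries. Staining for the sort included antibodies to class II protein in both tissues, so a gate on that protein could set part of the levels given here, and this was not tested. All comparisons with a test rest on 2 pools of mice for each population. The dataset was fitted as a block, so the p-values weigh a difference against how much differences between populations vary between the datasets. That spread was estimated over all 4 populations together (3 residual degrees of freedom) and moderated by other genes.

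After filtering, 7217 and 7470 cells with 1 hashtag remained in datasets 1 and 2, between 261 and 4971 for each of the 13 populations, with median depths between 2312 and 14279 UMIs. In all, 13 used cells carried a barcode that the other dataset also used. C1qa, a complement gene used here as a marker of LysoDCs, was at 7366 to 10297 CPM (UMIs of a gene per 1000000 UMIs) in LysoDCs. It was at 326 and 1514 CPM in immature and maturing cDC2s, and at 454 to 526 CPM in blood cells of dataset 1 against 31.6 to 84.3 CPM in those of dataset 2. The 11 cDC2 markers summed to 1115 and 1010 CPM in cDC2s, to 1091 to 1234 CPM in LysoDCs and to 1625 and 2056 CPM in DN cells, so the list as a whole did not set cDC2s apart. Among its genes, Flt3 (104 and 66.3 CPM), Kit (117 and 85.5 CPM) and Zbtb46 (63.3 and 47.0 CPM) were higher in cDC2s than in LysoDCs, where Flt3 did not exceed 8.0 CPM, Kit 14.7 CPM and Zbtb46 7.0 CPM, and DN cells had 47.7 and 79.0 CPM of Flt3. The other genes of the list together were thus lower in cDC2s than in LysoDCs. Flt3, Kit and Zbtb46 do not speak for the whole list. Cd209a stood at only 15.1 and 39.1 CPM in cDC2s but at 489 and 747 CPM in DN cells. Ly6c2 was at 1288 and 1059 CPM in Ly6C+ monocytes, and CD43+ monocytes had 680.3 and 688 CPM of Spn, which encodes CD43.

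The short promoter stretch with the letters of the X and Y boxes, through which Ciita is recruited, is given for the 6 genes in which both were found. Promoter sequences (250 bases before to 50 after a gene's start) were taken from RefSeq on GRCm38.p6, where 7 of the 10 genes had an entry. H2-Ab1, Ciita and Cd74 had none. The genes with an entry were searched on their own strand, and all promoters, for the background, on either strand. Only the 250 bases before the start were searched. The search looked for GATTGG, the letters of the Y box, with AAC, letters inside the X box, starting 25 to 32 bases before it. That spacing was chosen after the sequences of these genes had been seen, so that the pair is found in them is a description only. Capitals mark AAC and GATTGG, and each sequence runs 5′ to 3′ on the strand of its gene.
H2-Aa (chr17:34287862-34287910, minus strand): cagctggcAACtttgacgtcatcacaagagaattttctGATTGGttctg
H2-Eb1 (chr17:34305770-34305817, plus strand): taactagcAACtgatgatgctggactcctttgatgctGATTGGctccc
H2-DMb1 (chr17:34153091-34153139, plus strand): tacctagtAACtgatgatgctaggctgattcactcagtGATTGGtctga
H2-DMb2 (chr17:34145120-34145168, plus strand): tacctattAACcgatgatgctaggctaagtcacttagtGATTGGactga
H2-Oa (chr17:34092297-34092345, plus strand): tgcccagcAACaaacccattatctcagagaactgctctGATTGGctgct
H2-Ob (chr17:34238812-34238857, plus strand): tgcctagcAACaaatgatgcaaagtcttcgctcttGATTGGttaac

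In these 6 promoters GATTGG began 44 to 91 bases before the gene's RefSeq start, and the AAC in capitals began 27 to 30 bases before GATTGG. The GENCODE spans given below start elsewhere for some genes. By those spans the windows of H2-DMb1 and H2-DMb2 lie inside the gene, and that of H2-Oa runs into it. H2-Oa has a second AAC within the searched spacing, which is left in lower case. On either strand, the Y box letters alone occurred in 14.6% of 32536 distinct promoter sequences of the same length. The pair at this spacing occurred in 1.40% of them (455 promoters). Neither of the 2 promoters listed for H2-DMa held the pair, which says only that these letters are not in that window at that spacing. H2-DMb1 and H2-DMb2 are neighbouring paralogs, and their windows were identical at 43 of 49 bases (87.8%), against 18 to 25 of 49 bases for the other pairs of equal length. The transcripts of H2-DMb1 and H2-DMb2 are also nearly alike, so the division of UMIs between them depends on how the counting resolved shared reads. In the GENCODE annotation of GRCm38, the listed H2 genes lie within chr17:34092340-34316674, with H2-DMb2 (chr17:34143307-34151555) and H2-DMb1 (chr17:34153072-34160230) side by side on the plus strand, whereas Ciita lies on another chromosome (chr16:10480059-10528418, plus strand).

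The chain genes were high in all LysoDCs, in both cDC2 populations and in DN cells, and several-fold lower in Ly6C+ and CD43+ monocytes. H2-Aa, an alpha chain, was at 7087, 7089, 6563 and 7118 CPM in follicular, immature, intermediate and mature LysoDCs of dataset 1, at 7242 CPM in LysoDCs of dataset 2, and at 6803 and 6889 CPM in immature and maturing cDC2s. In blood it was at 6892 and 9983 CPM in DN cells of datasets 1 and 2, at 893 and 862 CPM in Ly6C+ monocytes, and at 701 and 273 CPM in CD43+ monocytes. The monocyte values thus lay apart from all others, and the 9 remaining populations fell within a narrow band in which only the DN cells of dataset 2 stood higher. H2-Ab1, its beta chain partner, was at 6638, 6889, 6646 and 7729.8 CPM in the 4 LysoDC gates, 8596 CPM in LysoDCs of dataset 2, 7459.6 and 7589 CPM in cDC2s, 7064 and 11254 CPM in DN cells, 971 and 907 CPM in Ly6C+ monocytes, and 807 and 322 CPM in CD43+ monocytes. H2-Eb1 was at 7412, 7798, 7207 and 7822 CPM in the LysoDC gates, 7874 CPM in LysoDCs of dataset 2, 8009.5 and 8214 CPM in cDC2s, 6525 and 9622 CPM in DN cells, 731 and 499 CPM in Ly6C+ monocytes, and 737 and 265 CPM in CD43+ monocytes. Cd74 followed the same division at a higher level: 22021 to 23716 CPM in follicular, immature and mature LysoDCs, 20451 CPM in intermediate LysoDCs, 18879.5 CPM in LysoDCs of dataset 2, 26614 and 27252 CPM in cDC2s and 27271 and 26577 CPM in DN cells. In Ly6C+ monocytes Cd74 was at 4007 and 2958 CPM, and in CD43+ monocytes at 3259.7 and 1012 CPM. Levels of different genes are set beside each other in 3′ UMIs, which do not scale with the length of a transcript. Whether the genes were captured and their reads assigned equally well was not tested.

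**Figure D1:**
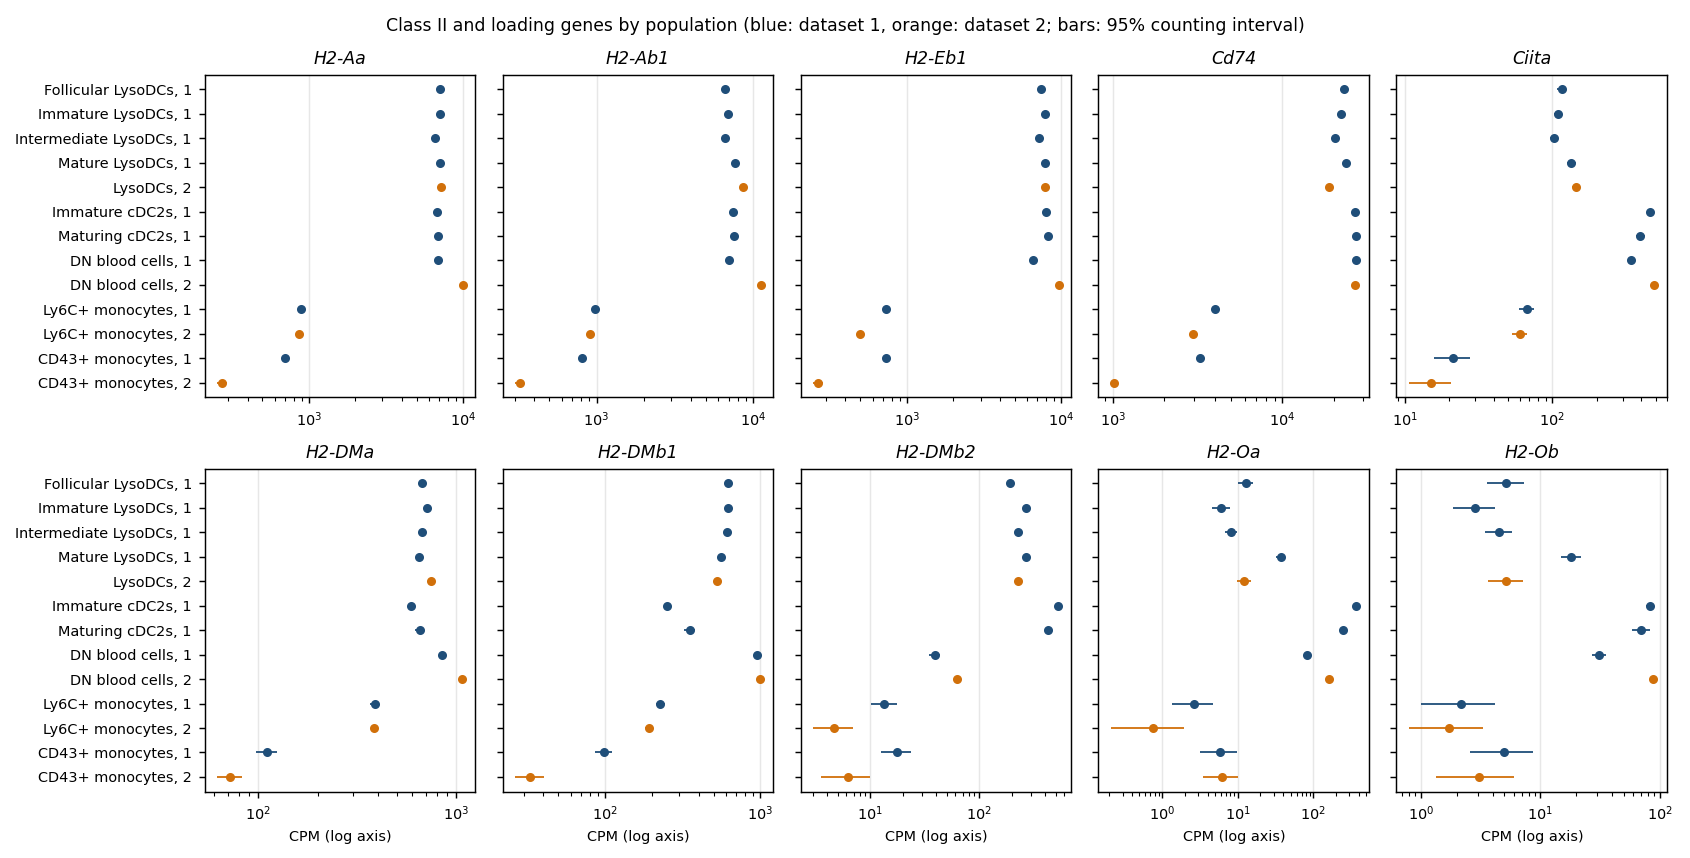
Level of each of the 10 genes in CPM (log axis) in the 13 populations, with dataset 1 in blue and dataset 2 in orange. Points are sums over the cells of a population and bars are exact Poisson 95% intervals, which cover counting error only. The chains and Cd74 are low in the monocyte populations alone, whereas H2-DMb2, H2-Oa and H2-Ob are also spread among the cells with high chains.

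Ciita, the transactivator, was low relative to the chains in LysoDCs. It was at 116, 109, 102 and 135 CPM in follicular, immature, intermediate and mature LysoDCs and at 145 CPM in LysoDCs of dataset 2. In immature and maturing cDC2s it was at 458 and 395 CPM, and in DN cells at 343 and 487 CPM. Ly6C+ monocytes had 67.0 and 60.2 CPM, and CD43+ monocytes 21.2 and 15.02 CPM. LysoDCs thus stood closer to Ly6C+ monocytes than to cDC2s in Ciita, although their chain levels were near those of cDC2s. In UMIs of Ciita per 100 UMIs of the 3 chains, LysoDCs ranged from 0.500 to 0.610 over the 4 gates and dataset 2, below cDC2s (2.06 and 1.74), DN cells (1.67 and 1.58), Ly6C+ monocytes (2.58 and 2.66) and CD43+ monocytes (0.943 and 1.75). A UMI of Ciita was found in 57.6% to 71.6% of LysoDCs, 90.1% and 80.8% of cDC2s, 65.9% and 83.2% of DN cells, 19.3% and 20.8% of Ly6C+ monocytes, and 6.49% and 2.10% of CD43+ monocytes. LysoDCs were sequenced more deeply per cell, and after each cell was thinned to 1000 UMIs the shares were 9.92% to 12.1%, 36.6% and 26.8%, 26.2% and 37.0%, 6.44% and 6.00%, and 2.41% and 1.16%, in the same order.

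The loading factor genes differed from each other in where they were high. H2-DMa was at 672, 713, 667 and 649 CPM in the LysoDC gates, 744 CPM in LysoDCs of dataset 2, 588 and 653 CPM in cDC2s and 841 and 1069 CPM in DN cells. It was also well represented in Ly6C+ monocytes, at 386 and 385 CPM, but at only 110.0 and 71.6 CPM in CD43+ monocytes. H2-DMb1 was at 615, 618, 611 and 554 CPM in the LysoDC gates and 526 CPM in LysoDCs of dataset 2, at 946 and 1001 CPM in DN cells, and at 250.1 and 350.1 CPM in cDC2s. Ly6C+ monocytes had 227 and 192 CPM of H2-DMb1, and CD43+ monocytes 98.0 and 32.7 CPM. Its paralog H2-DMb2 was at 191, 270.1, 229 and 267 CPM in the LysoDC gates, 225 CPM in LysoDCs of dataset 2 and 522 and 427 CPM in cDC2s, but at 39.0 and 62.4 CPM in DN cells, 13.3 and 4.62 CPM in Ly6C+ monocytes, and 17.4 and 6.16 CPM in CD43+ monocytes. H2-DMb2 was thus higher in all Peyer's patch populations than in DN cells, and H2-DMa and H2-DMb1 were lower in all of them, with no overlap of values. Relative to the chains, the H2-DM genes together made up 24.2 and 25.7 UMIs per 100 chain UMIs in Ly6C+ monocytes, 10.0 and 12.9 in CD43+ monocytes, 8.92 and 6.91 in DN cells, 6.31 to 7.38 in LysoDCs, and 6.10 and 6.30 in cDC2s.

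The H2-O genes were highest in cDC2s and DN cells and low in LysoDCs and monocytes. H2-Oa was at 365 and 251 CPM in immature and maturing cDC2s and at 83.3 and 161 CPM in DN cells. In follicular, immature and intermediate LysoDCs it was at 12.9, 6.03 and 8.15 CPM, in mature LysoDCs at 37.3 CPM, and in LysoDCs of dataset 2 at 12.1 CPM. Ly6C+ monocytes had 2.67 and 0.770 CPM of H2-Oa, from 11 and 4 UMIs, and CD43+ monocytes 5.81 and 6.16 CPM. H2-Ob followed H2-Oa at a lower level: 83.2 and 69.7 CPM in cDC2s, 31.0 and 87.5 CPM in DN cells, 18.0 CPM in mature LysoDCs, 2.85 to 5.18 CPM in the other LysoDC gates, 5.19 CPM in LysoDCs of dataset 2, and 1.73 to 4.98 CPM in monocytes. A UMI of H2-Oa was found in 85.1% of immature and 67.4% of maturing cDC2s at median depths of 7387 and 7480 UMIs. In LysoDCs, at median depths of 8999 to 14279 UMIs, the share was 22.0% in the mature gate and 7.48% to 11.4% in the other gates and dataset 2. Of DN cells 23.0% and 50.3% had one, and of monocytes 0.462% to 1.66%.

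Against the mean of the log values of Ly6C+ and CD43+ monocytes, 9 of the 10 genes were higher in LysoDCs, where 29.9% of the 11458 genes tested were called higher and 27.4% lower. All tests are edgeR's quasi-likelihood test on sums of counts for each population and dataset, with Benjamini-Hochberg adjustment over all genes tested and a threshold of 0.05. H2-DMb2 had the largest difference of the 10, a log2 fold change of 4.73 ± 0.50 (SE; adjusted p = 0.00196). The chains differed by 3.63 ± 0.41 (H2-Aa, adjusted p = 0.00148), 3.60 ± 0.44 (H2-Ab1, adjusted p = 0.00216) and 4.02 ± 0.45 (H2-Eb1, adjusted p = 0.00155), and Cd74 by 3.15 ± 0.36 (adjusted p = 0.000867). Ciita (2.09 ± 0.18, adjusted p = 6.77e-06), H2-DMa (2.10 ± 0.18, adjusted p = 6.73e-06) and H2-DMb1 (2.49 ± 0.33, adjusted p = 0.00161) differed by less than the chains. H2-Oa was higher by 2.29 ± 0.48 (adjusted p = 0.00995), and H2-Ob, at 1.44 ± 0.69, did not pass (adjusted p = 0.143). The median of the 10 log2 fold changes was 2.82, against 0.01 over all genes tested. H2-Oa no longer passed without LysoDCs of dataset 1 (adjusted p = 0.0547) or without CD43+ monocytes of dataset 1 or 2 (adjusted p = 0.0658 and 0.0702).

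**Figure D2:**
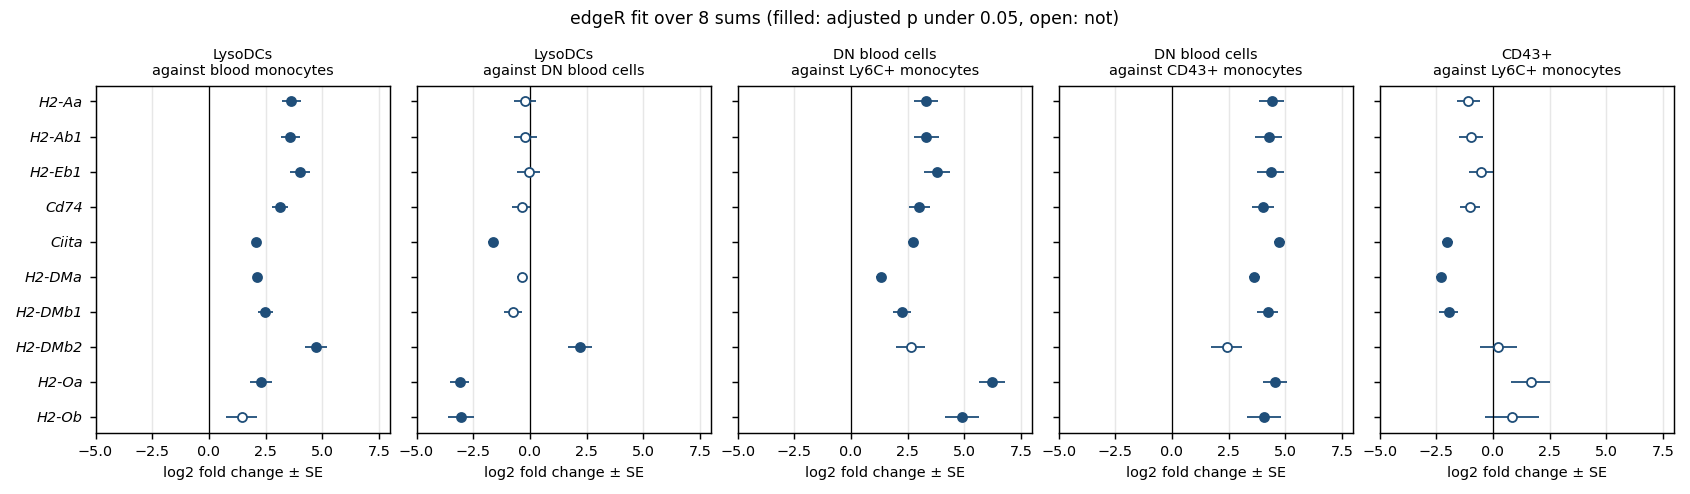
Log2 fold change with its SE for each of the 10 genes in 5 comparisons, from edgeR on 8 sums of cells (2 pools of mice for each population). Filled points have an adjusted p under 0.05. In LysoDCs against DN cells only H2-DMb2 lies to the higher side with a filled point, while Ciita, H2-Oa and H2-Ob lie to the lower side.

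Within blood, CD43+ monocytes had less of 3 of the 10 genes than Ly6C+ monocytes, in a comparison where 14.5% of genes tested were called lower. These were Ciita (a log2 fold change of -2.02 ± 0.25, adjusted p = 0.000367), H2-DMa (-2.29 ± 0.23, adjusted p = 0.000117) and H2-DMb1 (-1.96 ± 0.43, adjusted p = 0.0239). The chains were at -1.09 (H2-Aa, adjusted p = 0.182), -0.95 (H2-Ab1, adjusted p = 0.258) and -0.54 (H2-Eb1, adjusted p = 0.511) and Cd74 at -1.02 (adjusted p = 0.146), and none of these passed. The pools differed here: CD43+ monocytes of dataset 1 had 701 CPM of H2-Aa and those of dataset 2 had 273 CPM. Without CD43+ monocytes of dataset 1, 7 of the 10 genes passed, the chains and Cd74 among them, and with DESeq2, or with no filter on low counts, 6 passed. H2-DMb1 no longer passed without either sum of Ly6C+ monocytes (adjusted p = 0.112 and 0.183) or either sum of LysoDCs (adjusted p = 0.071 and 0.0694), which are not part of the contrast but enter the fit. The blood cells of dataset 1 also had the higher C1qa level given above. C1qa in the blood populations was 5.21% to 6.03% of its level in LysoDCs in dataset 1 and 0.404% to 1.08% in dataset 2, while H2-Aa in CD43+ monocytes was 10.2% and 3.77% of its level in LysoDCs, and in Ly6C+ monocytes 12.98% and 11.9%. The part of free RNA in the monocyte levels of the chains was not tested.

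DN cells had more of 9 of the 10 genes than either monocyte population. Against Ly6C+ monocytes, where 7.37% of genes tested were called higher, H2-Oa differed most, by 6.22 ± 0.58 (log2, adjusted p = 0.00352), followed by H2-Ob at 4.91 ± 0.76 (adjusted p = 0.0216). The chains differed by 3.31 ± 0.53 (H2-Aa, adjusted p = 0.0220), 3.32 ± 0.56 (H2-Ab1, adjusted p = 0.0268) and 3.81 ± 0.58 (H2-Eb1, adjusted p = 0.0209), Cd74 by 3.01 ± 0.46 (adjusted p = 0.0143) and Ciita by 2.72 ± 0.21 (adjusted p = 0.000181). H2-DMa differed by 1.33 ± 0.22 (adjusted p = 0.00437) and H2-DMb1 by 2.26 ± 0.41 (adjusted p = 0.0229), and H2-DMb2, at 2.64 ± 0.64, did not pass (adjusted p = 0.0759). This comparison rests on few libraries: 3 genes passed without Ly6C+ monocytes of dataset 1, 2 without those of dataset 2, and 4 without either sum of LysoDCs. Ciita and H2-Oa passed in all 19 alternatives run. Against CD43+ monocytes, where 17.1% of genes tested were called higher, the same 9 genes were higher, with log2 fold changes from 3.62 (H2-DMa) to 4.73 ± 0.25 (Ciita, adjusted p = 5.09e-06), and H2-DMb2 was at 2.41 ± 0.68 (adjusted p = 0.0641). In that comparison H2-Oa no longer passed without CD43+ monocytes of dataset 2 (adjusted p = 0.0774), and H2-Ob no longer passed without any 1 of the 4 monocyte sums (adjusted p = 0.0677 to 0.206).

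LysoDCs and DN cells, both high in class II chains, differed in 4 of the 10 genes: Ciita, both H2-O genes and H2-DMb2. LysoDCs had less Ciita (log2 fold change -1.64 ± 0.20, adjusted p = 8.83e-05), H2-Oa (-3.10 ± 0.40, adjusted p = 0.00170) and H2-Ob (-3.03 ± 0.56, adjusted p = 0.0103), and more H2-DMb2 (2.20 ± 0.52, adjusted p = 0.0277). In this comparison 26.1% of genes tested were called lower and 26.0% higher, so the number called, 4 of 10, is close to the background. The chains were at -0.22 (H2-Aa, adjusted p = 0.739), -0.20 (H2-Ab1) and -0.05 (H2-Eb1), Cd74 at -0.37 (adjusted p = 0.507), H2-DMa at -0.37 (adjusted p = 0.174) and H2-DMb1 at -0.75 ± 0.39 (adjusted p = 0.165), none of which passed. Ciita and H2-Oa passed in all 19 alternatives, and H2-Ob in 18. H2-DMb2 no longer passed without LysoDCs of dataset 1 or 2 (adjusted p = 0.134 and 0.163) or with no filter on low counts (adjusted p = 0.0929), although its values in the 2 populations did not overlap. H2-DMb1 passed, as lower in LysoDCs, without either sum of CD43+ monocytes (adjusted p = 0.00533 and 0.00558) or with no filter (adjusted p = 0.000788).

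The division of H2-DMb UMIs between the paralogs differed between cDC2s, LysoDCs and DN cells. For each UMI of H2-DMb1 there were 0.310, 0.437, 0.374 and 0.481 UMIs of H2-DMb2 in follicular, immature, intermediate and mature LysoDCs, and 0.429 in LysoDCs of dataset 2. The ratio was 2.09 (95% interval 1.97 to 2.21) in immature and 1.22 (1.10 to 1.35) in maturing cDC2s, and 0.0412 and 0.0624 in DN cells. Ly6C+ monocytes had 0.0587 and 0.0240, and CD43+ monocytes, from few UMIs, 0.178 and 0.188. In dataset 1, H2-DMb2 in Ly6C+ and CD43+ monocytes was 5.59% and 7.30% of its LysoDC level, and C1qa 5.21% and 6.03%. In dataset 2 the values were 2.05% and 2.73% for H2-DMb2 and 0.404% and 1.08% for C1qa. The part of free RNA in the monocyte ratios was not tested. The excess of H2-DMb2 was thus seen in cDC2s, and DN cells had almost only H2-DMb1. DN cells and Ly6C+ monocytes overlapped in this ratio. The order of cDC2s, LysoDCs and DN cells also held cell by cell. Among cells with at least 5 UMIs of the pair, the median share that was H2-DMb2 was 71.4% in immature cDC2s (581 cells) and 60.0% in maturing cDC2s (150 cells), 20.0% to 30.0% in the LysoDC gates and 28.6% in LysoDCs of dataset 2, and 0% in DN cells of both datasets. Both paralogs were detected in 78.7% to 91.2% of such LysoDCs and in 88.0% and 86.7% of such cDC2s, against 21.4% and 26.0% of such DN cells.

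**Figure D3:**
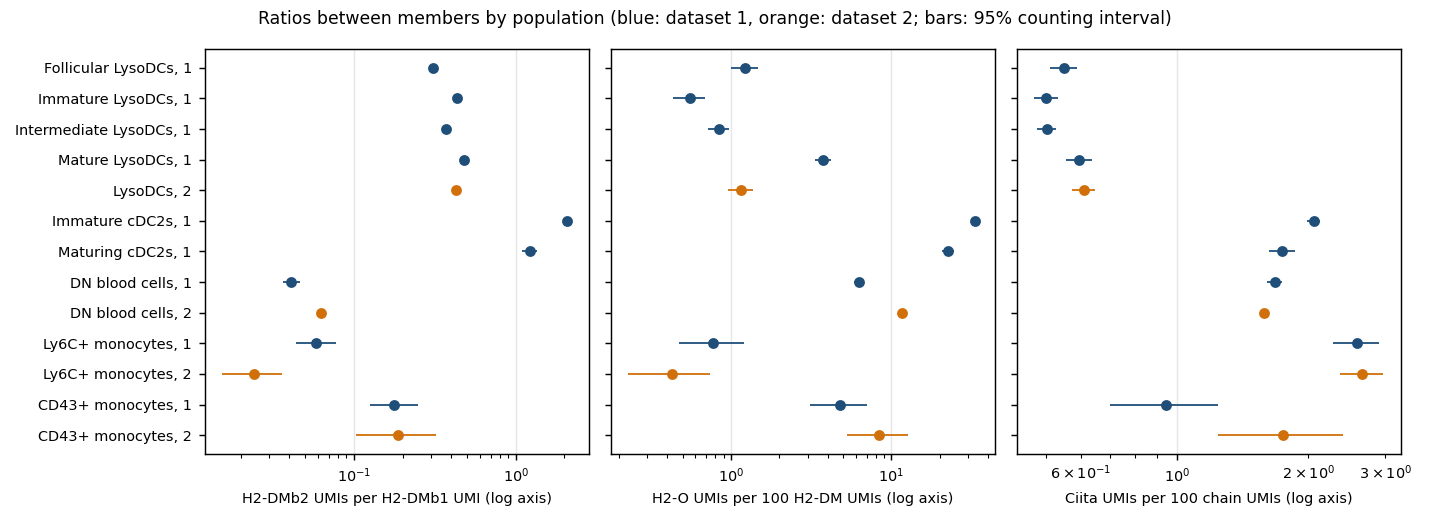
Ratios of UMIs on log axes in the 13 populations: H2-DMb2 per H2-DMb1, H2-O per 100 H2-DM, and Ciita per 100 chain UMIs, with 95% intervals for counting error. cDC2s have the highest values in the first and second panels, and LysoDCs the lowest in the third.

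The inhibitor was set against the factor it restrains in the same way. H2-O made up 32.9 and 22.4 UMIs per 100 H2-DM UMIs in immature and maturing cDC2s, and 6.26 and 11.6 in DN cells. In follicular, immature and intermediate LysoDCs it made up 1.22, 0.555 and 0.839, in mature LysoDCs 3.76 (95% interval 3.36 to 4.19), and in LysoDCs of dataset 2 1.16. Ly6C+ monocytes had 0.774 and 0.430, and CD43+ monocytes 4.79 and 8.36 from few UMIs. Between the 2 subunits, H2-Oa outnumbered H2-Ob by 439 to 100 in immature cDC2s and 359.6 to 100 in maturing cDC2s, and by 268 and 184 to 100 in DN cells. Across the 13 sums H2-Oa and H2-Ob ran in parallel (Pearson's r of log2 CPM 0.980), as did H2-Aa and H2-Ab1 (0.998). H2-DMb1 and H2-DMb2 did so less (0.595), as did Ciita and H2-Ab1 (0.861), and H2-DMb1 and H2-Ob had the lowest value of all pairs (0.381). The sums of dataset 1 share 1 library and its free RNA. In dataset 2, by the labels, each blood sum shares libraries and free RNA with LysoDCs but not with the other blood sums.

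Among the LysoDC gates of dataset 1, which had no replicate, the chains and the H2-DM genes stayed close. Of the 8 members with at least 50 CPM in either gate, none differed by over 1.5-fold between mature and immature LysoDCs, where 3.04% of 2664 such genes were higher and 1.31% lower. Ciita was 1.24-fold higher in mature than in immature LysoDCs (95% interval 1.12 to 1.36, counting error only) and H2-Ab1 1.12-fold. H2-DMb2 was 1.41-fold higher in immature than in follicular LysoDCs (1.32 to 1.52). The 2 members below 50 CPM differed most between mature and immature LysoDCs, H2-Oa by 6.17-fold (4.56 to 8.49) and H2-Ob by 6.31-fold (4.06 to 10.2). In dataset 2 the 3 larger LysoDC hashtags (143 to 321 cells), whose subsets are not known, lay between 7097 and 7379 CPM for H2-Aa, 139 and 150.2 CPM for Ciita, 221 and 233 CPM for H2-DMb2, and 4.62 and 15.2 CPM for H2-Oa.

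Cells with at least 2 UMIs of H2-Oa were set apart in the mature gate. They were 40 of its 455 cells (8.79%) and held 73.7% of the gate's H2-Oa UMIs. That share follows in part from choosing the cells by H2-Oa. Such cells held 24.4% to 42.7% in follicular, intermediate and dataset 2 LysoDCs (1.22% to 1.62% of cells). In DN cells of dataset 1 they held 62.3% (8.64% of cells). The 40 cells of the mature gate had 2661 CPM of C1qa against 7810.0 CPM in the gate's other cells, 62.5 against 2.86 CPM of Flt3, and 322 against 117 CPM of Ciita. C1q genes are not among the 10, but the cells rich in H2-Oa had less C1qa. Cells were then divided at 5000 CPM of C1qa, C1qb and C1qc together, an alternative chosen after seeing the data. Lower H2-Oa and Ciita in the cells kept thus follow in part from this choice. The division gives a range and not a cell type: 29 cells of the mature gate lay between 2500 and 10000 CPM. Below 5000 CPM were 59 of the 455 cells (12.97%), and they had 304.3 CPM of H2-Oa and 372 CPM of Ciita. The median cell among them had 219 CPM of H2-Oa and 328 CPM of Ciita, against 0 and 83.1 CPM in the rest. Flt3 was detected in 23 of the 59 cells (39.0%), and the B cell gene Cd79a in 14 (23.7%), where it summed to 682 CPM. The cells kept had 12.7 CPM of H2-Oa, 11.1 CPM of H2-Ob, 113 CPM of Ciita, 579 CPM of H2-DMb1 and 252 CPM of H2-DMb2, so mature LysoDCs with high C1q were near the other gates in H2-Oa and Ciita but not in H2-Ob. H2-O per 100 H2-DM then was 1.60 (95% interval 1.34 to 1.89), in place of 3.76, against 0.548 to 1.01 in the other gates divided in the same way. Of the 110 H2-Ob UMIs of the mature gate, 62 were in the cells kept.

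Fewer cells fell below that level in the other LysoDC populations, between 1.22% and 2.79%. In follicular LysoDCs 16 cells did, with 116 CPM of H2-Oa and 1668 CPM of Cd79a, in intermediate LysoDCs 18 cells did, with 110.0 CPM of H2-Oa, and in immature LysoDCs 8 cells did, with no UMI of H2-Oa. In dataset 2, 19 LysoDCs did, with 205 CPM of H2-Oa and 490 CPM of Ciita, and the rest had 8.08 CPM of H2-Oa. The summed B cell marker list was at 196 to 294 CPM in the LysoDC gates, at 218 CPM in LysoDCs of dataset 2, at 88 and 147 CPM in cDC2s and at 27 to 75 CPM in blood cells. B cells are known to express H2-O, and the part of B cell RNA in the H2-Oa and H2-Ob of LysoDCs was not tested. In the maturing cDC2 gate 38 of 261 cells (14.6%) lay above 5000 CPM, and these had 186 CPM of Ciita, 755 CPM of H2-DMb1, 298 CPM of H2-DMb2 and 15.5 CPM of H2-Oa. The maturing cDC2s kept had 434 CPM of Ciita, 273 CPM of H2-DMb1, 451 CPM of H2-DMb2 and 295 CPM of H2-Oa, all nearer to immature cDC2s than before. The H2-DMb2 to H2-DMb1 ratio was then 1.65 (95% interval 1.47 to 1.85) in maturing cDC2s, in place of 1.22, and 2.10 in immature cDC2s, where 15 cells (1.55%) had been left out.

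**Figure D4:**
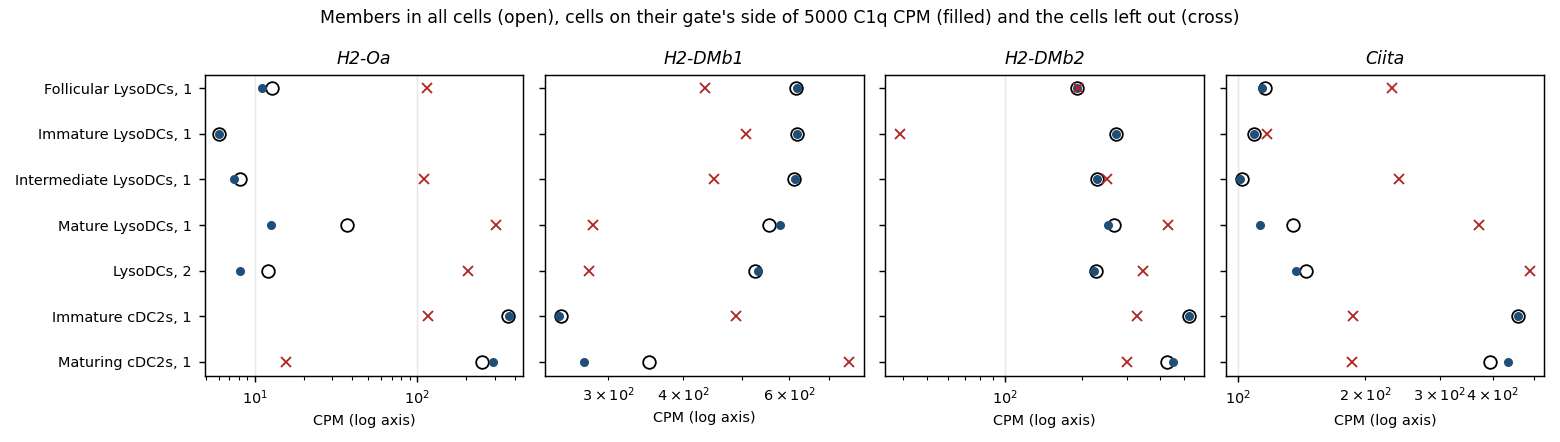
CPM of H2-Oa, H2-DMb1, H2-DMb2 and Ciita in LysoDC and cDC2 populations: all cells (open), cells on the gate's own side of 5000 C1q CPM (filled) and cells left out (cross). A left-out value of 0, H2-Oa in immature LysoDCs, is not drawn. The left-out cells of the mature LysoDC gate lie near the cDC2s in H2-Oa and Ciita, at 304.3 and 372 CPM, and those of the maturing cDC2 gate lie nearer to LysoDCs, at 15.5 and 186 CPM.

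Immature cDC2s were set against immature LysoDCs to show where Peyer's patch cells with like chain levels differ, again without replicates. Of the 10 genes, 4 were over 1.5-fold higher in cDC2s, where 29.7% of 3209 genes with at least 50 CPM in either were higher, and 1 was lower, where 17.5% were. Higher were H2-Oa by 60.4-fold (95% interval 46.1 to 80.9), H2-Ob by 29.2-fold (19.6 to 45.5), Ciita by 4.21-fold (3.91 to 4.52) and H2-DMb2 by 1.93-fold (1.84 to 2.03). H2-DMb1 was lower, at 0.405 of its level in LysoDCs (0.384 to 0.427). H2-Aa, at 0.960, and Cd74, at 1.21, differed little. Against DN cells of dataset 1, immature cDC2s had 13.4-fold more H2-DMb2 (11.9 to 15.1), 4.38-fold more H2-Oa, 2.68-fold more H2-Ob and 1.34-fold more Ciita, and 0.264 of the H2-DMb1. From immature to maturing cDC2s, H2-DMb1 was 1.40-fold higher (1.28 to 1.53), while H2-DMb2 was at 0.818, Ciita at 0.861 and H2-Oa at 0.687 of the earlier level. The cells with high C1q described above lie in the maturing gate and move with these 4 values.

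In single cells, class II was high in most tissue and DN cells and uneven in monocytes. After thinning to 1000 UMIs, the median cell had 43 to 48 UMIs of the 9 members other than Ciita in the LysoDC gates, 44 in LysoDCs of dataset 2, 51 and 51 in cDC2s, and 51 and 59 in DN cells. The median was 4 and 1 in Ly6C+ monocytes and 4 and 1 in CD43+ monocytes. No class II UMI was left in 4.40% and 32.6% of Ly6C+ monocytes and in 4.22% and 49.1% of CD43+ monocytes, with the higher shares in dataset 2. Blood cells of dataset 1 also had the higher C1qa level given above. The part of free RNA in these medians and shares was not tested. DN cells of dataset 1 were more mixed than those of dataset 2: their 10th percentile was 10 against 37, and 84.4% against 97.0% had at least 20 such UMIs. The DN cells of dataset 2 sum the gates with and without CCR2.

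Monocytes with many class II UMIs were set apart to describe their other genes. The share of class II UMIs that they held follows in part from this choice. At 20 or more class II UMIs per 1000 were 83 of 931 Ly6C+ monocytes of dataset 1 (8.92%), which held 46.5% of the gate's class II UMIs, and 89 of 866 in dataset 2 (10.3%), which held 60.5%. These sets are ranges: 42 and 47 cells had 15 to 24 such UMIs. Ciita was not used to choose them, and it was at 279 and 250.3 CPM in them, against 46.3 and 37.7 CPM in the other Ly6C+ monocytes. A UMI of Ciita was found in 62.7% and 68.5% of them against 15.1% and 15.3% of the rest. Cd209a, high in DN cells, was at 199.8 and 165 CPM in them against 23.4 and 21.7 CPM, with a UMI in 30.1% and 21.3% of them against 5.31% and 5.15%, while the median cell had none in either. Ly6c2, which marks Ly6C+ monocytes, was at 1270 and 1172 CPM in them against 1290 and 1046 CPM, with medians of 764 and 402 against 789 and 605 CPM. Among CD43+ monocytes the like sets were 26 of 663 cells (3.92%) and 14 of 952 (1.47%), with 22.6% and 41.8% of the class II UMIs. Cd209a summed to 207 and 332 CPM in these sets and to 12.7 and 0.394 CPM in the rest, and they had 476 and 174 CPM of Spn against 692 and 699 CPM. The B cell gene Cd79a was at 115 CPM in the set of dataset 1 (3 of its 26 cells) against 9.21 CPM in the rest, and at 0 in that of dataset 2, and its part in the class II level was not tested.

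Within populations, the presence of a Ciita UMI went with several-fold more class II RNA in Ly6C+ monocytes, and with ratios of at most 1.29 in the other populations. In thinned cells, Ly6C+ monocytes with a Ciita UMI had a mean of 19.2 class II UMIs against 6.46 in those without (60 and 871 cells, ratio 2.98) in dataset 1, and 22.25 against 4.69 (52 and 814 cells, ratio 4.74) in dataset 2. In DN cells the means were 58.6 against 45.4 (440 and 1238 cells, ratio 1.29) and 60.8 against 56.6 (1838 and 3133 cells, ratio 1.07). In LysoDCs they were 52.1 against 47.1 in the follicular, 46.4 against 45.3 in the immature, 46.6 against 42.4 in the intermediate and 56.2 against 47.2 in the mature gate (55 to 106 cells with a Ciita UMI), and 53.2 against 43.6 in dataset 2. In cDC2s they were 50.8 against 49.6 and 52.7 against 50.0. The same division by Rfx5, Spi1 or Irf8, which are no members, gave ratios from 0.84 to 1.15. Rfx5 is in the list of the promoter complex below, and Spi1 and Irf8 in that of Ciita regulators, so none is a neutral comparison. A thinned cell with no Ciita UMI may still express the gene, and fewer than 20 CD43+ monocytes had one. In cells thinned to 2000 UMIs the ratios were 1.40 and 1.10 in DN cells and 2.78 and 4.18 in Ly6C+ monocytes. They were 1.07 to 1.19 in LysoDCs and 1.04 and 1.14 in cDC2s. Without thinning, deeper cells are more likely to show Ciita and the ratios were larger, 1.36 to 1.98 in LysoDCs, cDC2s and DN cells and 3.30 and 5.66 in Ly6C+ monocytes.

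**Figure D5:**
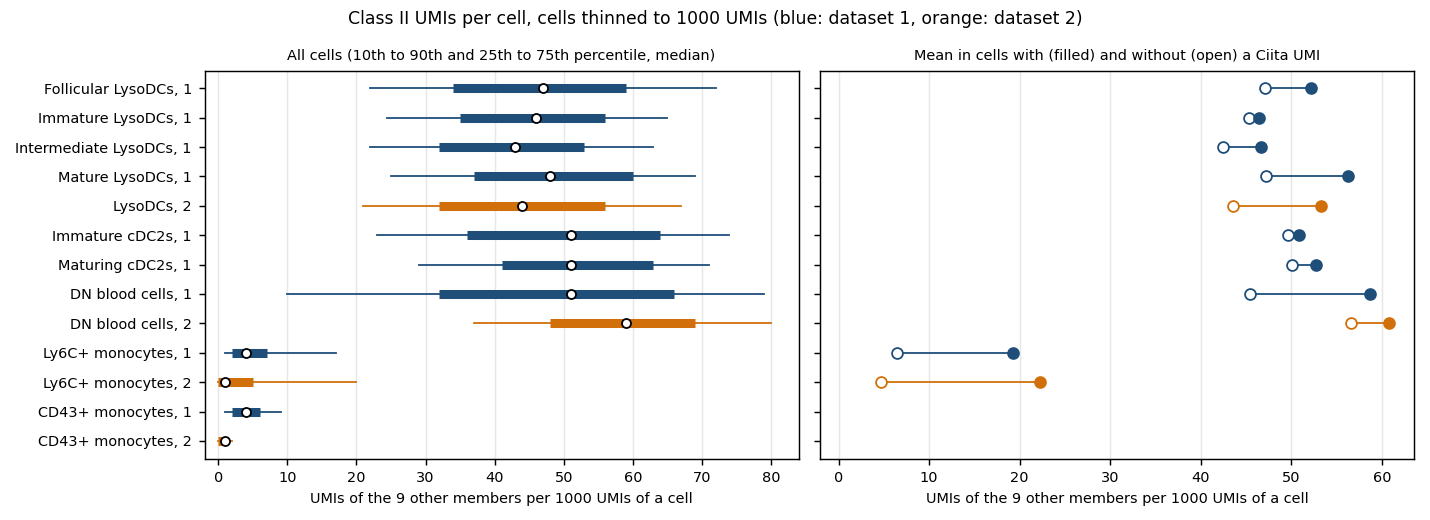
Left, UMIs of the 9 members other than Ciita per 1000 UMIs in single cells of each population (percentiles). Right, their mean in cells with and without a Ciita UMI, in populations with at least 20 cells on each side, which leaves out CD43+ monocytes. The means lie apart in Ly6C+ monocytes, at 19.2 and 22.25 against 6.46 and 4.69, a ratio of 2.98 and 4.74. In the other populations the ratio at this depth of 1000 UMIs was at most 1.29, in DN cells of dataset 1.

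Other genes of the pathway were read from lists chosen with earlier results of these data known. The counts are to be read against the 29.9% of all genes tested that were called higher and the 27.4% called lower in this comparison. Of 14 genes of the complex that binds class II promoters or acts with Ciita, 1 was higher and 9 were lower in LysoDCs than in blood monocytes (median log2 fold change -0.59 against 0.01 over all genes tested). The 1 higher gene was Rfx5 (0.71 ± 0.18, adjusted p = 0.00662), a subunit of the RFX factor, and the lower ones included the coactivators Ncoa1 (-1.17 ± 0.13, adjusted p = 2.31e-05), Ep300 (-0.98 ± 0.11, adjusted p = 3.36e-05) and Crebbp (-0.84 ± 0.12, adjusted p = 0.000148). Of 15 regulators of Ciita, 2 were higher, Socs1, an inhibitor of interferon signalling (2.27, adjusted p = 1.54e-05), and the kinase gene Jak2 (0.43), and 3 were lower, the repressor gene Zeb1 (-3.12, adjusted p = 2.65e-05), Irf2 (-1.37, adjusted p = 6.77e-06) and Usf1 (-0.90). All 6 surface partners of class II at the T cell contact were higher, with a median of 3.83, including the costimulatory genes Cd80 (2.59, adjusted p = 1.60e-06) and Cd86 (1.38, adjusted p = 1.58e-05) and the class II receptors Lag3 (5.08, adjusted p = 1.05e-05) and Cd4 (5.56, adjusted p = 0.000158), of which Cd4 protein was also stained in the sort. Of 10 genes that supply peptides, 6 were higher, such as the cathepsin genes Ctsz (2.75, adjusted p = 8.59e-08) and Ctsl (3.48, adjusted p = 2.27e-05) and the thiol reductase gene Ifi30 (2.22, adjusted p = 8.90e-06), and 2 were lower, the cathepsin inhibitor gene Cst3 (-2.68, adjusted p = 1.66e-07) and the protease gene Lgmn (-4.52). Of 10 genes of class II turnover, 3 were higher, the ubiquitin ligase genes March8 (1.07, adjusted p = 0.00154) and March1 (0.52) and the tetraspanin gene Cd82 (0.90, adjusted p = 0.000199), and 3 were lower, Sppl2a, whose protease clears fragments of the invariant chain (-1.09, adjusted p = 2.32e-05), Cd83 (-0.73) and Slc11a1 (-4.31). Of 6 neighbours in the class II region, 4 were higher, H2-Eb2 (4.17, adjusted p = 7.50e-05), the peptide transporter genes Tap1 (0.67) and Tap2 (0.72) and the proteasome gene Psmb8 (0.38), and 1, Brd2, was lower (-0.84, adjusted p = 0.000162).

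Against DN cells, where the median over all genes was -0.03 and 26.0% of genes tested were called higher and 26.1% lower, none of the promoter complex was higher and 6 genes were lower (median -0.45), among them Ep300 (-0.82) and Ncoa1 (-0.76). Of the regulators of Ciita (median 0.13), Socs1 (2.99), Jak1 (0.44) and Irf8 (1.67) were higher, and Zeb1 (-4.77), Irf2 (-1.27), Irf4 (-2.31) and Usf1 (-0.90) were lower. Of the surface partners (median 2.81), 5 of 6 were higher, all but Cd40. Of the peptide supply genes (median 0.82) 7 were higher and 3 lower, the latter being Cst3 (-2.60), Lgmn (-4.50) and Ctsh (-0.50). Of the turnover genes (median -0.02) March8 (3.07) and Cd82 (1.56) were among those higher, and Cd83 (-1.42) and Sppl2a (-0.56) were lower, and of the region genes (median 0.09) 1 was higher and 1, Brd2 (-0.51), lower. The 1 region gene higher in LysoDCs was H2-Eb2 (4.36, adjusted p = 0.000113), an H2-E beta-like gene. H2-Eb2 was at 27.0, 49.4, 64.6 and 87.4 CPM in follicular, immature, intermediate and mature LysoDCs, 53.8 CPM in LysoDCs of dataset 2, 59.8 and 50.9 CPM in cDC2s, and 1.43 to 5.81 CPM in blood cells. Like H2-DMb2, it thus was high in all Peyer's patch populations and low in DN cells.

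By the likeness of log2(CPM + 1) over the 13 sums, among 4184 genes with at least 50 CPM in 1 sum or more, the genes outside the 10 members most like Ciita were Slamf7 (Pearson's r 0.967), Apex1 (0.963), Fh1 (0.926), Arl3 (0.923) and Cyp51 (0.919). Those outside the members most like H2-Ab1 were Fdps (0.976), Marveld1 (0.970), Idi1 (0.959), Avpi1 (0.954) and Gnl3 (0.940). These lists depend on the measure: by Spearman's rho 2 of the 5 genes remained for Ciita and 0 of the 5 for H2-Ab1.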

How the data were processed

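The deposited matrices came from Cell Ranger 6.0.1, per the file headers, and give whole-number UMI counts of genes and hashtags for every barcode, and the submitters' processing notes name Cell Ranger 2.0.0 and mm10. The authors had applied no normalization to these counts. The 10 members and all lists were chosen with earlier results of these data known. Every member is described. Of each pathway list at most 4 genes are named, those with the smallest adjusted p in LysoDCs against blood monocytes, and genes most alike are the 5 with the highest Pearson correlation (members, mitochondrial, ribosomal, immunoglobulin and unnamed genes left out). Other list genes are named where 5 or fewer were called, after their values were seen, and C1q, Cd209a, Flt3, Kit, Zbtb46, Cd79a, Ly6c2 and Spn are named as cell type markers. Columns of other samples numbered 0.

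Seurat 5.3.0 assigned hashtags in each dataset (HTODemux, quantile 0.99). Of 11878 and 13111 barcodes, 2422 and 4572 were removed as doublets and 1113 and 23 as negative. These calls, and so the cells used, depend on the order of cells through the clustering step. Calls with k-means clustering gave the same numbers of members called in all 5 comparisons. Cells needed 1000 UMIs, 500 genes and at most 10% mitochondrial UMIs. Raw counts of 8 sums (LysoDCs, DN cells, Ly6C+ and CD43+ monocytes in each dataset, 2409391 to 35505429 UMIs) were tested in edgeR 4.0.16 (R 4.3.3) with TMM, filterByExpr, robust quasi-likelihood fits and the dataset as a block, which pairs populations from the same experiment (3 residual degrees of freedom). Subsets and cDC2s, in dataset 1 only, were compared without a test. The planned DN subsets share a hashtag and were summed. On simulated counts of LysoDCs against monocytes with 11458 genes, 77% of genes changed 2-fold and 94% of genes changed 4-fold were recovered, with 13 false calls. The simulation gave all genes the same dispersion and no difference between datasets. Its recovery need not hold for genes that vary more between pools. Intervals (95%, exact Poisson or Clopper-Pearson) cover counting error only, and 3 counts, the floor of detection, equal 0.104 to 1.48 CPM. Sums, thinning and motif searches used Python 3.11.15, numpy 2.4.6, pandas 2.3.3 and scipy 1.17.1. Alternatives were DESeq2 1.42.0, no filter, no block, other hashtag, purity and cell filters, cells with B cell UMIs left out, each sum left out and, chosen after seeing the data, k-means hashtag calls and cells divided by C1q.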

Additional observations from a re-analysis of the deposited data

How the results depend on the processing

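Over the alternatives run, 860 of 950 log2 fold changes of the 10 genes kept their direction and their side of the threshold, 44 lost and 33 gained it, and 13 changed sign. None of the values that changed sign had passed. In LysoDCs against DN cells these were H2-Eb1 at a hashtag quantile of 0.95 (0.011) and without LysoDCs of dataset 1 (0.10), H2-Aa (0.12), H2-Ab1 (0.10), H2-Eb1 (0.20) and H2-DMa (0.081) at a hashtag purity of at least 80%, and 4 genes without DN cells of dataset 2: H2-Aa (0.36, and -0.69 without those of dataset 1), H2-Ab1 (0.42 and -0.69), H2-Eb1 (0.68 and -0.60) and Cd74 (0.073 and -0.74). In CD43+ against Ly6C+ monocytes they were H2-DMb2 without CD43+ monocytes of dataset 1 (-0.68) or Ly6C+ monocytes of dataset 2 (-0.35, and 1.07 without those of dataset 1), and H2-Eb1 without CD43+ monocytes of dataset 2 (0.092, and -1.45 without those of dataset 1). The class II ratio by Ciita in immature cDC2s was 0.997 without cells with a B cell UMI, against 1.02. Under a rule other than that for fold changes, 194 of 900 CPM values, 399 of 1160 shares of cells and 18 of 46 Ciita ratios moved. The fold changes thus do not stand for the stability of these values.

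Without the dataset block, which pairs the sums of an experiment, 963 genes were called in DN cells against Ly6C+ monocytes in place of 1692. H2-DMb2 then passed in DN cells against Ly6C+ and CD43+ monocytes (adjusted p = 0.0277 and 0.0188), and all other calls of the 10 genes stayed. DESeq2 and the fit with no filter each called 6 members in CD43+ against Ly6C+ monocytes, in place of 3. Purity of at least 80% left no CD43+ monocytes in dataset 1, so 7 sums were fitted. It gave 4322 genes in LysoDCs against monocytes (6569 otherwise, with 64.5% against 52.1% of them higher), 1589 in CD43+ against Ly6C+ monocytes (3202) and 2520 in DN cells against CD43+ monocytes (3810), and 61.2% in place of 50.0% of calls were higher in LysoDCs against DN cells. H2-DMa did not pass in DN cells against Ly6C+ monocytes at that purity (adjusted p = 0.158). Leaving out 1 sum gave 4636 to 6912 genes and 8 to 10 members in LysoDCs against monocytes, 1322 to 3597 and 2 to 7 in CD43+ against Ly6C+ monocytes, 310 to 2253 and 2 to 10 in DN cells against Ly6C+ monocytes, 1538 to 3910 and 7 to 10 in DN cells against CD43+ monocytes, and 4265 to 6134 and 3 to 5 in LysoDCs against DN cells. The causes were not tested. Depth limits H2-Oa and H2-Ob most, which had 4 to 16 UMIs in each monocyte sum.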
